A study of Macaca mulatta with 12 samples.

Results

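Among the T cell receptor beta chain (TRB) clonotypes of the 8 libraries made from monkeys after infusion of apoptotic donor leukocytes, 2996 of 218161 kept the reading frame through the CDR3 but held a stop codon in it. The CDR3 spans the joints between V, D and J segments, and a clonotype here is a distinct CDR3 nucleotide sequence in a library. Members were all clonotypes whose deposited translation of the CDR3 had a stop and no frame break. The other clonotypes of the same libraries comprised 200807 productive ones, which translate through, and 14358 out-of-frame ones. The label under which these clonotypes were collected, in-frame rearrangements with a stop codon, did not describe 1543 of the 2996 (51.5%). These had a stop in a shared stretch directly before TRBJ1-3, a first J segment was found before that stretch in all but 8 of them, and they are called two-J clonotypes below. Whether the stops of the other 1453 were made by rearrangement was not tested.

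The study infused apoptotic donor leukocytes, white cells of the donor made to undergo cell death, to induce tolerance in rhesus macaques (Macaca mulatta). The libraries came from peripheral blood mononuclear cells of 3 nondiabetic, nontransplanted monkeys named Amazo, Nebula and Rocket, which differed from their donors at MHC class I, shared 1 MHC-DRB allele with them, and received infusions on days -7 and 1 per the series text under transient anti-CD40, rapamycin, tocilizumab and etanercept. The libraries were labelled day -5 and day -4 (all 3 names), day 0 (Nebula) and day +3 (Amazo), with 1 library for each name and day. The other 4 libraries of the series were labelled baseline, carried other names and had 280 counts in all. They held 0 stop-codon clonotypes among 165 clonotypes, which allows a share of up to 1.82%, so no comparison with baseline was made.

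T cells assemble the TRB gene by joining a D to a J segment and then a V segment to the DJ joint, with bases trimmed and added at each joint. About as many joints fall in each reading frame, so a T cell can carry a productive rearrangement on one chromosome and a nonproductive one on the other, and transcripts of the latter with early stops are degraded by nonsense-mediated decay. Each J segment is preceded by a recombination signal, made of a heptamer, a spacer and a nonamer, which the V(D)J recombinase cuts away, and is followed by a splice donor that joins the J to the constant region. In the germline the J segments of the first cluster lie one after another, in the order of their numbers. The libraries were made from polyadenylated RNA, so they show transcripts and not genomic rearrangements.

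Most of the most abundant members were two-J clonotypes. The exception among those named by highest count was a TRBV7-6 clonotype, the highest in Nebula day -5, which is shown further below. The following two-J sequences are the stop-codon clonotypes with the highest count in the libraries Rocket day -5, Amazo day -4, Nebula day -4 and Nebula day 0. With them stand 3 others of the 5 with the highest count summed over the libraries. Each is written 5′ to 3′ from the first base of the CDR3, and capitals mark the stretch of 38 bases that all of them shared.
TRBV9 two-J: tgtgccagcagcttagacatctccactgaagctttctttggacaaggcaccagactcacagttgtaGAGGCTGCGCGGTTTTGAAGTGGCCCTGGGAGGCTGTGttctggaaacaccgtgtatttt
TRBV5-1 two-J: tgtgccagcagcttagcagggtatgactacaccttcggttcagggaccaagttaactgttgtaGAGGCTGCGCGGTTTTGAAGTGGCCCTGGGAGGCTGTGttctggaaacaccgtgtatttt
TRBV6-3 two-J: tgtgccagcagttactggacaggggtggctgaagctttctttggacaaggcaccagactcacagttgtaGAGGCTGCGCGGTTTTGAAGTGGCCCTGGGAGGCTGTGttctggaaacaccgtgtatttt
TRBV23-1 two-J, first J TRBJ1-2: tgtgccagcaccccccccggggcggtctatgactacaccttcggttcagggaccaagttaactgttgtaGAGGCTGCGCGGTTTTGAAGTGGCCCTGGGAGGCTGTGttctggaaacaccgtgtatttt
TRBV7-3 two-J: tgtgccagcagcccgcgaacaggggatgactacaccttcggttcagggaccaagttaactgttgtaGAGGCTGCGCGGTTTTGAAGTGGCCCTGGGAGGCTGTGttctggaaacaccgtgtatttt
TRBV23-1 two-J, first J TRBJ1-1: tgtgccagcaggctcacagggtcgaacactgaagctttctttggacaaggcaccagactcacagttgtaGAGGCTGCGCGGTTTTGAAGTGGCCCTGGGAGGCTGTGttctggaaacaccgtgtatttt
TRBV2-1 two-J: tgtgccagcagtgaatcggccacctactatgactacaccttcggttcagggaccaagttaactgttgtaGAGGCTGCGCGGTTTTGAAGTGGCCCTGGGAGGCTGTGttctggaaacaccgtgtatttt
Before the capitals each sequence holds a V segment, a joint and the end of a J segment of the first cluster, and after them the start of TRBJ1-3, which is the J gene the deposited tables name.

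The shared stretch stood directly before the TRBJ1-3 sequence. It reads as follows, with its in-frame stop codon in capitals, which starts at base 16.
TRBJ1-3 flank: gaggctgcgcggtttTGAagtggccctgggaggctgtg
Its last 7 bases, ggctgtg, took the heptamer position of a recombination signal and differed from the consensus cactgtg at 2 bases. A spacer of 12 bases lay before them, and the 9 bases in the nonamer position, ggttttgaa, differed from the consensus ggtttttgt at 3 bases. The stretch was present without a mismatch in 1516 of the 1543 two-J clonotypes and with 1 mismatch in the other 27. The stop in it, present in 1543 of 1543, followed from how the class was made. The stretch was taken from stop-codon clonotypes, and an in-frame CDR3 that ends in TRBJ1-3 reads it in the frame with this stop. A stop before the stretch was present in only 21 of the two-J clonotypes. Since no genome was used here, the position of the stretch next to TRBJ1-3 rests on the transcripts alone.

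The first J segment was TRBJ1-2 in 1047 two-J clonotypes (67.9%) and TRBJ1-1 in 488 (31.6%), judged from the last 15 bases before the stretch with up to 2 mismatches, and 8 had neither. Per 100 productive clonotypes of the same J, this was 6.78 for TRBJ1-2 and 3.97 for TRBJ1-1. TRBJ1-2 was the more frequent first J in each of the 8 libraries, with 39 to 226 clonotypes against 20 to 105. From the end of the CDR3 of the first J to the stretch, the commonest sequences were as follows, shown because the first J stopped at or near their end.
TRBJ1-1 part: ggacaaggcaccagactcacagttgta
TRBJ1-2 part: ggttcagggaccaagttaactgttgta
The TRBJ1-2 part stood in 914 clonotypes (90.7% of those whose TRBJ1-2 CDR3 end was found) and the TRBJ1-1 part in 422 (87.9%). Both end in gttgta, directly before the stretch. A further 78 and 34 clonotypes had 3 more bases, gca, before the stretch. With or without them, the base after gttgta is g, so the border between the first J and what follows is uncertain by a base. The V-D-J portion alone ran up to the CDR3 end of the first J, which was found in 1488 clonotypes. It was in frame and free of stops in 1472 of these, with a median of 42 bases, as in productive clonotypes. Its frame followed from the rule, since members are in frame over the whole CDR3 and the sequence after this portion was nearly constant. In out-of-frame clonotypes with the stretch, the portion was out of frame in 351 of the 424 in which that end was found.

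**Figure D1:**
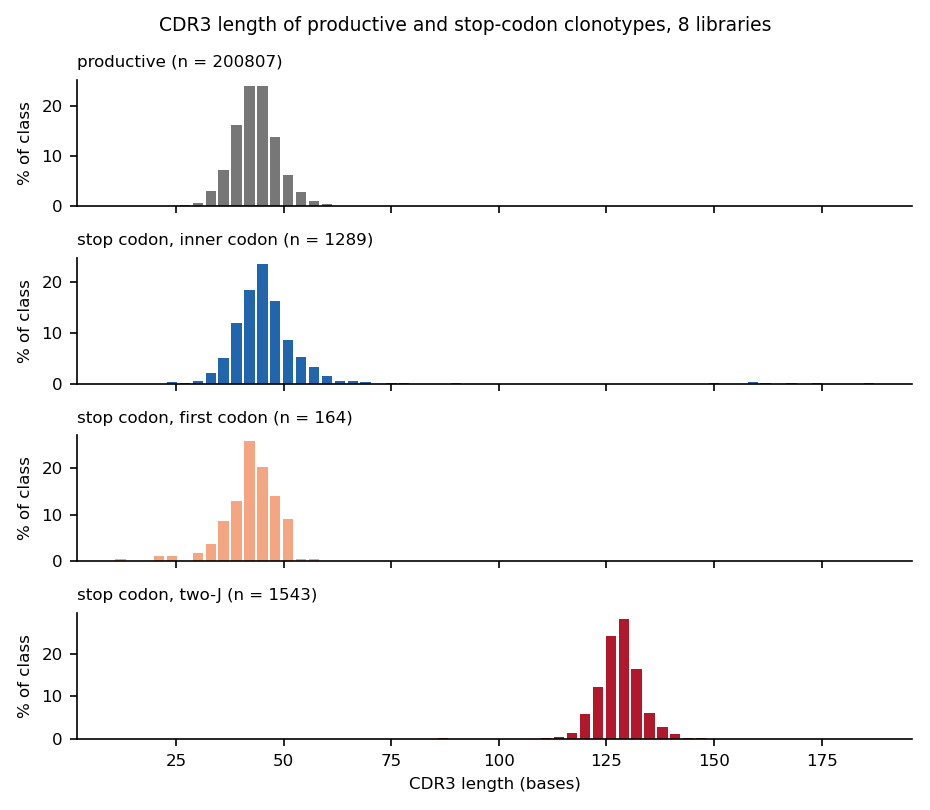
CDR3 length in bases (x axis) as a percent of each class (y axis) for the productive clonotypes and 3 classes of stop-codon clonotypes, 8 libraries together. The two-J clonotypes centre on 129 bases and lie apart from the other 3 panels, whose medians are 42 to 45 bases.

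Two-J clonotypes made stop-codon clonotypes long. Mean CDR3 length was 87.3 ± 3.26 bases in stop-codon and 43.4 ± 0.152 bases in productive clonotypes (SD, n = 8 libraries), and was longer in stop-codon clonotypes in 8 of 8 libraries (difference 43.8 ± 3.23 bases, exact sign-flip permutation p = 0.00781, adjusted p = 0.00781 over 4 measures). The differences ran from 38.9 bases in Nebula day -4 to 49.1 in Nebula day 0. Without the two-J clonotypes the difference was 2.72 bases (exact sign-flip p = 0.00781). A longer CDR3 has more codons that can hold a stop, so the rule for members itself favours length. With the libraries pooled, the median was 45 bases in the members that were not two-J and 42 in productive clonotypes. The two-J clonotypes had 75 to 147 bases with a median of 129. Another 16 members exceeded 70 bases without the stretch and raised the mean behind the 2.72 bases by an amount that was not tested. Of these, 10 in 7 libraries had TRBJ2-5 as the named J, with 150 to 168 bases and counts of 1 to 12.

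The 8 libraries were not independent samples of 8 repertoires. The libraries labelled Amazo day -5, Amazo day +3, Rocket day -5 and Rocket day -4 shared stop-codon clonotypes with each other, as did the 3 Nebula libraries. Over the 9 library pairs within these sets, 8 to 16 stop-codon sequences were shared. Over the other 19 pairs, those with Amazo day -4 included, 0 or 1 was shared. Sequences were thus shared by libraries of different names and not by the Amazo day -4 library with the others of its name. Names are used here as the labels give them, and a pair of libraries of 1 name may not be a pair from 1 animal. The tests across libraries therefore take related libraries as separate, and their p-values may be too small. Averaged first within Nebula, within the other set and for Amazo day -4 alone, the 4 measures kept their directions, with length at 43.3 bases. The exact sign-flip permutation test over 3 such values cannot go below p = 0.25. Nothing in the labels says that same-name libraries were separate extractions, and the floors cover counting error only.

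Stop-codon clonotypes were 0.744% to 2.00% of the clonotypes of a library, with a median of 1.31%. Rocket day -5 held 341 of 17061, Nebula day -5 583 of 30350, Nebula day 0 508 of 30488 and Amazo day -4 389 of 26025. Amazo day -5 held 396 of 35116, Amazo day +3 273 of 24945, Rocket day -4 371 of 36038 and Nebula day -4 135 of 18138. The lowest share was in the library with the fewest counts, Nebula day -4 (42695 counts against 258096 to 556954 in the others), and the part of depth in it was not tested. By counts the share was 0.494% to 1.14%, lower than by clonotypes in each library. The out-of-frame share was 4.63% to 9.14% of clonotypes. Two-J clonotypes were 43.7% to 56.9% of the stop-codon clonotypes of a library and 47.7% to 68.1% of their counts.

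**Figure D2:**
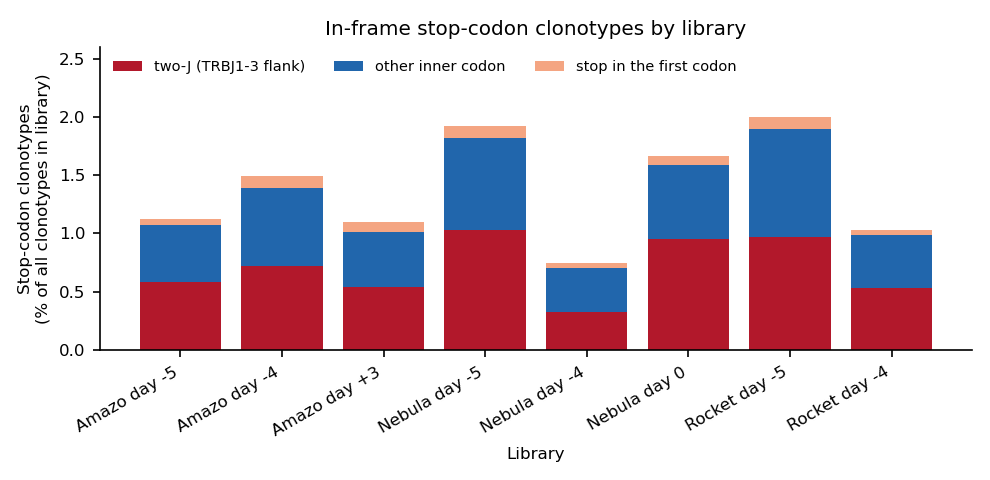
Stop-codon clonotypes as a percent of all clonotypes (y axis) in each library (x axis), stacked by class. Two-J clonotypes fill 43.7% to 56.9% of each bar, and the whole bar runs from 0.744% in Nebula day -4 to 2.00% in Rocket day -5.

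Day -5 and day -4 libraries, collected 1 day apart after the same infusion, were compared within names. The stop-codon share of clonotypes was 1.13%, 1.92% and 2.00% at day -5 and 1.49%, 0.744% and 1.03% at day -4 in Amazo, Nebula and Rocket. It was lower at day -4 in Nebula and Rocket and higher in Amazo, whose libraries of these days held different repertoires. The mean fell by 0.593 ± 0.838 percentage points (SD, n = 3 pairs, exact sign-flip permutation p = 0.5, smallest possible 0.25). Without Amazo the difference was -1.07 points and without Nebula -0.30. By counts it was -0.198 points, and without two-J clonotypes -0.256.

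The TRBV9 two-J clonotype had the highest count of all members. It was counted 488 times in Rocket day -5, 315 in Rocket day -4, 260 in Amazo day -5 and 166 in Amazo day +3, and not in the other 4 libraries. Its V-D-J portion was itself a large productive clonotype in the same libraries, with 29531, 12455, 11994 and 10151 counts. The two-J form thus stood at 1.65%, 2.53%, 2.17% and 1.64% of the productive form. The libraries without it held the productive form at no more than 8 counts. The TRBV7-3 two-J clonotype followed the same libraries, with 160 counts in Rocket day -5, 57 in Rocket day -4, 71 in Amazo day -5 and 107 in Amazo day +3, or 1.38%, 1.34%, 1.23% and 1.77% of its productive form. In Amazo day -4 the TRBV5-1 two-J clonotype had 102 counts against 6700 of its productive form (1.52%). In the Nebula libraries the TRBV6-3 two-J clonotype had 67 counts at day -5, 40 at day 0 and 4 at day -4, against 8029, 7305 and 1738.

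TRBV23-1 two-J clonotypes had far more counts for the size of their productive form. The one with TRBJ1-1 had 110 counts against 309 in Rocket day -5 (35.6%), 22 against 54 in Rocket day -4, 11 against 67 in Amazo day -5 and 45 against 125 in Amazo day +3. The one with TRBJ1-2 had 48 counts against 91 in Nebula day -5 and 7 against 17 in Nebula day -4, and 17 in Nebula day 0, where its productive form was not listed. TRBV2-1 took a middle place, with 81 counts against 1176 in Rocket day -5 (6.89%).

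Over the 8 libraries the V-D-J portion was listed as a productive clonotype of the same library for 191 of 1488 two-J clonotypes (12.8%). For TRBV23-1 there were 84 such pairs, with the two-J count at a median of 55.6% of the productive count and above it in 21. For the other V genes there were 107 pairs, with a median of 11.1% and 13 above. Among pairs whose productive form had at least 100 counts, the median was 1.64% over 46 pairs of other V genes and 35.6% over 3 of TRBV23-1. The TRBV23-1 pairs were the TRBJ1-1 clonotype named above in Rocket day -5 (35.6%) and Amazo day +3 (36%), and another in Amazo day -4 (14.7%). The 46 pairs ran from 0.0788% to 22.0%, so the lowest TRBV23-1 pair lay within their range. Both groups hold clonotypes repeated across related libraries. These V groups were chosen after the values were seen and were not tested. Of the 31 productive TRBJ1-1 or TRBJ1-2 clonotypes at or above 0.1% of a library, 21 had a two-J form, against 151 of 27722 smaller ones. A two-J form at 1.64% of a productive clonotype of 30 counts would be below 1 count, so the shallow end of this comparison is limited by depth.

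TRBV23-1, a gene that the human classification lists as an open reading frame and not as functional, was the leading V gene of the stop-codon clonotypes. It was the first V hit of 40.8% ± 4.36 of stop-codon and 7.93% ± 1.30 of productive clonotypes (SD, n = 8 libraries). The ranges over libraries, 35.5% to 48.9% and 6.33% to 9.92%, did not overlap. In the test over all V genes its log2 fold change was 2.80 ± 0.0970 (SE, edgeR quasi-likelihood test, adjusted p = 4.85e-27), and 1 library of each repertoire set gave 2.72 (edgeR adjusted p = 1.75e-05). Without the two-J clonotypes TRBV23-1 was still higher, at 18.3% ± 5.39 of the other stop-codon clonotypes, with a log2 fold change of 1.12 (edgeR adjusted p = 7.16e-07) and higher in 8 of 8 libraries. Of the two-J clonotypes themselves, 55.8% to 74.6% used TRBV23-1 in each library. It also made up 16.4% to 27.5% of the out-of-frame clonotypes.

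**Figure D3:**
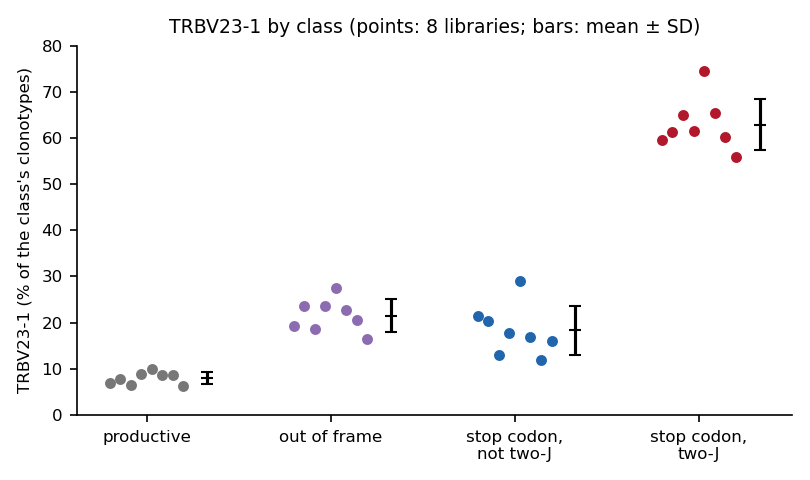
Share of clonotypes that used TRBV23-1 (y axis, percent) in 4 classes of clonotype (x axis), with 1 point per library and the mean ± SD beside them. Productive clonotypes lie at 6.33% to 9.92% and two-J clonotypes at 55.8% to 74.6%, with the out-of-frame and the other stop-codon clonotypes between.

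Set against productive clonotypes that used TRBJ1-1 or TRBJ1-2, TRBV23-1 had 67.0 two-J clonotypes per 100 (955 against 1426). All other V genes together had 2.23 per 100 (588 against 26327). The range over libraries was 24.0 to 84.7 for TRBV23-1 and 0.582 to 3.78 for the others, with the lowest of both in Nebula day -4. Of the 44 other V genes that had a two-J clonotype and at least 100 productive ones, the median was 2.08 and the highest was 12.7, for TRBV2-2. TRBV2-1 and TRBV2-3 had 6.81 and 5.76 per 100. Median counts of two-J clonotypes were alike for TRBV23-1 (6) and the others (5). The reads behind TRBV23-1 were assigned without a rival V gene in nearly all cases (0.00596% of its clonotypes had more than 1 V hit).

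Of 56 V genes tested, 4 were higher (7.14% of all tested) and 11 lower (19.6%) in stop-codon than in productive clonotypes. The 4 higher genes were TRBV23-1, TRBV5-3, TRBV2-1 and TRBV2-2. TRBV5-3, which like TRBV23-1 is an open reading frame in the human classification, was 0.555% ± 0.450 of stop-codon and 0.153% ± 0.0315 of productive clonotypes (16 stop-codon clonotypes, log2 fold change 2.22 ± 0.542, SE, edgeR adjusted p = 0.00372), and was higher in 6 of 8 libraries. TRBV2-1 and TRBV2-2 had log2 fold changes of 0.88 ± 0.242 and 0.74 ± 0.193 (edgeR adjusted p = 0.00726 and 0.00577). Without the two-J clonotypes TRBV2-1 was at 0.61 (edgeR adjusted p = 0.169) and TRBV2-2 at -0.03 (edgeR adjusted p = 0.953). More than 1 V hit was listed for 64.8% of TRBV2-2 clonotypes, so its reads may be split with a similar gene.

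The 5 genes with the largest falls were TRBV7-7, TRBV3-1, TRBV3-4, TRBV3-3 and TRBV24-1. TRBV3-4 went from 4.03% ± 1.17 of productive to 1.27% ± 0.862 of stop-codon clonotypes (log2 fold change -0.99 ± 0.216, edgeR adjusted p = 0.00125). TRBV3-1 and TRBV3-3 fell by 1.04 and 0.88 on the log2 scale (edgeR adjusted p = 0.00962 and 0.00726), and TRBV24-1 by 0.78 (edgeR adjusted p = 0.0401). TRBV7-7, at 7 stop-codon clonotypes, fell by 1.34 (edgeR adjusted p = 0.0443), and 53.9% of its clonotypes had more than 1 V hit. The number of calls depended on the scale. The log2 fold changes above are TMM-scaled and are not the ratios of the percents beside them. Scaled by total clonotypes, 2 genes were higher and 21 lower, with the median of all V genes at -0.52 against -0.08. On that scale TRBV23-1 was at 2.37 and TRBV3-4 at -1.42. DESeq2 called 5 genes, 5 of them higher, and with 1 library per repertoire set TRBV23-1 was the 1 gene called. Without two-J clonotypes 5 V genes were higher (8.93%) and 3 lower (5.36%). The higher ones were TRBV23-1, TRBV5-3, TRBV18, TRBV16 and TRBV5-8, with 7, 7 and 12 clonotypes for the last 3, and the lower ones TRBV13, TRBV12-2 and TRBV20-1. The 6 of these outside the rule for named genes are given after their values were seen. The 5 falls named above kept their direction there, with log2 fold changes of -0.95 for TRBV3-1, -0.95 for TRBV24-1, -0.69 for TRBV3-4, -0.65 for TRBV3-3 and -0.80 for TRBV7-7, and edgeR adjusted p of 0.0541 to 0.313. With at least 2 counts as well, 4 of the 5 passed, at -2.09 for TRBV3-4 to -3.32 for TRBV24-1 (edgeR adjusted p at most 0.00206), and TRBV7-7 was at -1.58 (edgeR adjusted p = 0.0836). TRBV7-7 also lost its call when single libraries were left out (in 7 of 8 cases) and TRBV24-1 in 5 of 8.

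TRBJ1-3 was the named J of 1606 stop-codon clonotypes, 1543 of them two-J. It made up 52.6% ± 3.63 of stop-codon and 4.71% ± 0.508 of productive clonotypes (SD, n = 8 libraries), with ranges of 47.4% to 59.1% and 4.18% to 5.36% that did not overlap (log2 fold change 4.27 ± 0.112, SE, edgeR adjusted p = 1.04e-56). Without two-J clonotypes the log2 fold change was -0.13 (edgeR adjusted p = 0.601). This loss followed from how the class was made, since every two-J clonotype had TRBJ1-3 as its named J. Of 13 J genes tested, TRBJ1-3 alone was higher (7.69% of all tested) and 5 were lower (38.5%). TRBJ1-2 went from 7.70% ± 0.691 of productive to 2.65% ± 0.756 of stop-codon clonotypes (log2 fold change -0.70 ± 0.170, edgeR adjusted p = 0.000539). TRBJ1-1 fell by 0.61, TRBJ1-4 by 0.55, TRBJ2-2 by 0.43 and TRBJ2-7 by 0.34 on the log2 scale (edgeR adjusted p = 0.00467, 0.00231, 0.0169 and 0.0169). These fold changes too are TMM-scaled and are not the ratios of the percents. Scaled by total clonotypes, TRBJ1-3 was at 3.50 and TRBJ1-2 at -1.46. On that scale 1 J gene was higher and 12 lower, with the median J gene at -1.11 against -0.34. DESeq2 called 1 higher and 1 lower. Without two-J clonotypes TRBJ2-4 and TRBJ2-5 were higher, at 0.36 and 0.33 (edgeR adjusted p = 0.0334 and 0.0379), which is 15.4% of the J genes, and TRBJ1-2 was lower, at -0.42 (edgeR adjusted p = 0.0363, 7.69%). The other 4 falls did not pass there. With 1 library per repertoire set TRBJ1-3 was at 4.39 (edgeR adjusted p = 5.47e-11) and was the 1 J gene called.

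Neither D segment of the reference held a stop codon. The core of the D reference, read from the alignments in the tables, was as follows, shown because a stop in a D frame would mark these clonotypes.
TRBD1: gggacagggggg
TRBD2: gggactgggggga
Of the 6 frames of each, 3 on either strand, 0 held a stop codon. Only alignments without a mismatch were read, so a D allele of these animals with a stop could not be seen. TRBD2 was nonetheless less frequent among stop-codon clonotypes with a D hit, at 18.2% ± 3.10 against 32.1% ± 2.03 in productive ones, and lower in 8 of 8 libraries (difference -13.9 ± 4.05 percentage points, exact sign-flip permutation p = 0.00781, adjusted p = 0.00781). This difference lay in the two-J clonotypes, of which 8.94% had a TRBD2 hit. For 645 of the 1488 with a known first J, the named D stretch lay past the V-D-J portion, where no D segment is joined. The comparison was also not matched for J. Nearly all two-J clonotypes had a first J of the first cluster, while productive clonotypes of every J were pooled. The part of J use in the TRBD2 difference was not tested. Without two-J clonotypes the difference was -1.53 points (exact sign-flip p = 0.477), with TRBD2 in 30.0% of 1050 clonotypes.

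The reading frame of the D segments was read in both classes. Among 36041 productive clonotypes with a forward TRBD2 core, the first D base fell on the codon bases 1, 2 and 3 in 34.5%, 29.2% and 36.2%. Among 184 stop-codon clonotypes with an inner stop it did so in 27.2%, 33.2% and 39.7%. For TRBD1 the shares were 36.9%, 29.8% and 33.3% in 63260 productive and 35.2%, 27.6% and 37.2% in 446 stop-codon clonotypes. These frames were not tested. In only 21 members did the first stop lie wholly inside the D alignment, and 17 of those stops were TAG. The one with the highest count, from TRBV10-1, TRBD2 and TRBJ2-1, had 38 counts in Rocket day -5, 13 in Amazo day +3 and 3 in Rocket day -4. Capitals mark its stop codon.
TRBV10-1 stop in the D part: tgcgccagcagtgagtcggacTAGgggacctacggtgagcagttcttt

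The 1453 members that were not two-J fell into 2 kinds by the place of the first stop. In 164 the stop was the first codon, where productive clonotypes have the conserved cysteine, and in 1289 it was an inner codon. Of the inner stops, 930 lay in or across a junction, 295 in the J part, 43 in the V part and 21 in the D part. Inner stops were commonest at codon 6 (220 clonotypes), and 813 (63.1%) lay in codons 5 to 9, counted from 1 at the conserved cysteine. In the junction, TAA, TAG and TGA were about equally frequent (299, 322 and 309). In the J part 225 of 295 were TAG and 68 were TAA, and in the first codon 162 of 164 were TGA. More than 1 stop was present in 43 of the 1289.

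**Figure D4:**
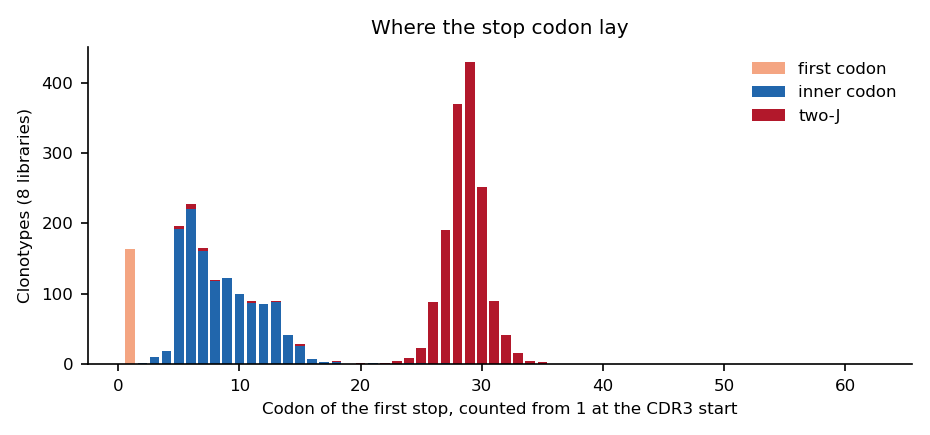
Number of stop-codon clonotypes in the 8 libraries (y axis) by the codon of the first stop (x axis, counted from 1 at the CDR3 start), stacked by class. Groups stand apart at codon 1, around codon 6 and around codon 29.

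The places of the stop went with different counts. A count of 1 was found for 156 of 164 first-codon stops (95.1%) and for 275 of 295 J-part stops (93.2%). It was found for 333 of 930 junction stops (35.8%), for 161 of 1543 two-J clonotypes (10.4%) and for 13.6% of productive and 25.2% of out-of-frame clonotypes. In the libraries one by one, 28.8% to 57.9% of junction stops and 88.7% to 100% of J-part stops had a count of 1. Nebula day -4, the shallowest library, gave the highest share for junction stops, two-J (49.2%) and productive clonotypes (42.4%).

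Over all members, counts per clonotype were lower than in productive clonotypes. The mean log2 count was 1.71 ± 0.625 in stop-codon and 2.42 ± 0.883 in productive clonotypes (SD, n = 8 libraries). It was lower in 8 of 8 libraries, by 0.28 in Nebula day -4 up to 0.99 in Amazo day -4 on the log2 scale (mean difference -0.72 ± 0.266, exact sign-flip permutation p = 0.00781, adjusted p = 0.00781). Among clonotypes with at least 2 counts and without two-J clonotypes, the difference was -0.10 (exact sign-flip p = 0.0312). Without two-J clonotypes but with single counts kept, it was -1.25 (exact sign-flip p = 0.00781).

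A productive clonotype of the same length, 1 base away and with at least 10 times the count, was present for 340 members (11.3%) and for 6418 productive clonotypes of 200807. Per library the share was 10.1% ± 8.53 in stop-codon and 3.47% ± 3.38 in productive clonotypes, and higher in 8 of 8 libraries (difference 6.65 ± 5.24 points, exact sign-flip permutation p = 0.00781, adjusted p = 0.00781). Without two-J clonotypes the difference was 17.1 ± 13.8 points (exact sign-flip permutation p = 0.00781). Productive clonotypes of the lengths of two-J clonotypes were nearly absent, so a two-J clonotype could hardly have such a neighbour. The share over all members ran from 0.741% in Nebula day -4 to 21.4% in Rocket day -5, the libraries with the fewest and the most counts. By place, 48.1% of J-part stops, 43.9% of first-codon stops, 32.6% of V-part stops and 11.5% of junction stops had such a neighbour. Of the 340, 333 had a count of 1. Among clonotypes with at least 2 counts the difference was 0.202 points (exact sign-flip p = 0.125).

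**Figure D5:**
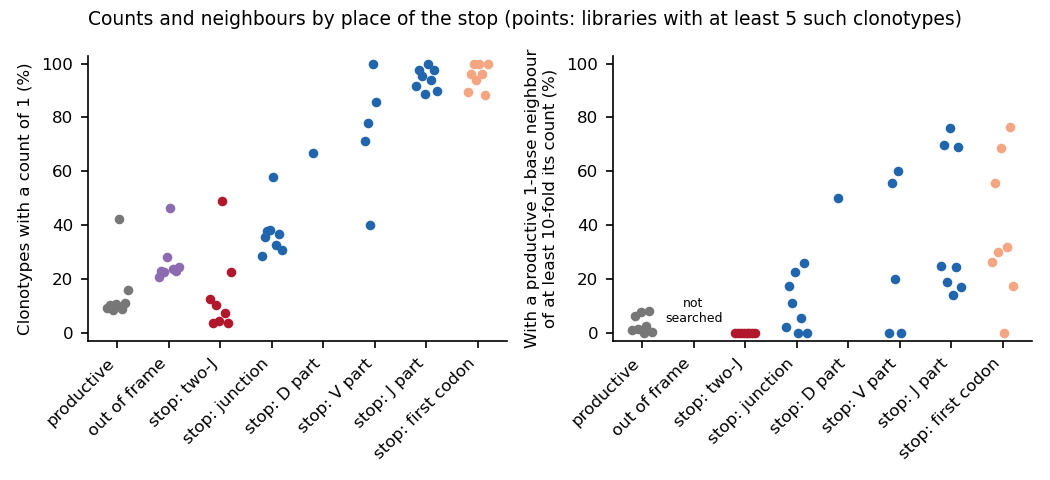
Percent of clonotypes with a count of 1 (left) and with a productive neighbour of at least 10-fold count (right) for productive, out-of-frame and stop-codon clonotypes by the place of the stop (x axis), with 1 point per library that held at least 5 such clonotypes. J-part and first-codon stops lie at 88.2% to 100% on the left. Two-J clonotypes lie at 0% on the right, where productive clonotypes of their lengths were nearly absent.

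Among single-count members, the neighbour counts also separated the places of the stop. Any productive neighbour of a higher count was present for 91.7% of first-codon and 90.5% of J-part stops with 1 count, for 63.7% of junction stops with 1 count and for 46.4% of productive clonotypes with 1 count. These shares were pooled and not matched by library. Nebula day -4 gave 7269 of the 27222 productive clonotypes with 1 count, but 33 of the 333 such junction stops. In it only 1.48% of all productive clonotypes had such a neighbour, which lowers the pooled productive share. Of the 597 junction stops with more than 1 count, 2 (0.335%) had a neighbour of at least 10-fold. Of the 173585 productive clonotypes with more than 1 count, 151 (0.0870%) had one. Over the 340 members with such a neighbour, the median neighbour was 14 times as abundant, and the highest was 27 times. The same V and J were named for both in 328 of the 340 pairs.

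The base that differs between neighbour and member always lies in the stop codon, since the neighbour holds no stop. The commonest change of codon was CAG to TAG (104 pairs), followed by TGT to TGA (70), TAT to TAG (25) and CAA to TAA (22). C-to-T changes were 129 and T-to-A changes 85 of the 340. Among the 6418 productive pairs they were 1185 and 315. Changes that make a stop are limited in kind, so the 2 sets of pairs are not alike by construction. The pair with the largest neighbour in the J part, the one in the first codon and the one in the junction were as follows, with the changed base in capitals.
TRBV23-1 and TRBJ2-7, productive: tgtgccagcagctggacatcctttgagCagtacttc
TRBV23-1 and TRBJ2-7, C28T: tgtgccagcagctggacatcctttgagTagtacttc
TRBV3-2 and TRBJ2-6, productive: tgTgccagcgtcctgactttc
TRBV3-2 and TRBJ2-6, T3A: tgAgccagcgtcctgactttc
TRBV30 and TRBJ1-1, productive: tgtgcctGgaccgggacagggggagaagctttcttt
TRBV30 and TRBJ1-1, G8A: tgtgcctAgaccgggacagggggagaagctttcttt
Positions are counted from 1 at the first base of the CDR3, with the base of the productive clonotype first. The counts were 33 and 3 in Nebula day -5 for the first pair, 25 and 1 in Amazo day +3 for the second, and 27 and 1 in Nebula day -5 for the third. These pairs were chosen after their values were seen.

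The quality score, the lowest base quality in the CDR3, moved with the same classes. It was under 30 for a median of 50.8% of J-part stops and 39.4% of first-codon stops over libraries. It was under 30 for 19.1% of junction stops, 12.7% of two-J and 5.36% of productive clonotypes. The part of base quality in the stops was not tested.

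The 4 junction stops with the highest counts had 33 to 57 bases and no productive neighbour 1 base away. They are shown with the stop codon in capitals. The first is also the stop-codon clonotype with the highest count in Nebula day -5.
TRBV7-6 and TRBJ2-4: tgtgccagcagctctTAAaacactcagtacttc
TRBV9, TRBD1 and TRBJ2-4: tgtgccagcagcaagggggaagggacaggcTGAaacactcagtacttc
TRBV7-4, TRBD2 and TRBJ2-6: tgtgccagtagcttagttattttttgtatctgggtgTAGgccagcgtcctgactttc
TRBV23-1 and TRBJ1-6: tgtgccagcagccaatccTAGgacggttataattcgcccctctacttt
The TRBV7-6 clonotype had 89 counts in Nebula day -5 and 30 in Nebula day 0, and a TAA at codon 6. The TRBV9 clonotype had 52 counts in Rocket day -5, 15 each in Amazo day -5 and Amazo day +3 and 5 in Rocket day -4, the same 4 libraries as the large TRBV9 two-J clonotype. The TRBV7-4 and TRBV23-1 clonotypes had 46 counts in Rocket day -5 and 42 in Amazo day -4 and were seen in no other library. The base quality of all 4 was 38. One first-codon stop was also abundant, a TRBV6-1 and TRBJ2-1 clonotype of 24 bases with 31 counts in Nebula day -5.

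Few stop-codon sequences were found in more than 1 library. Of 615 distinct inner-stop sequences seen with more than 1 count, 16 were seen so in 2 or more libraries, and of 652 seen with 1 count, 0 were seen with 1 count in a further library. At any count, 21 of 1260 inner-stop sequences were in 2 or more libraries, so some with 1 count in a library had more in another. For two-J sequences it was 36 of 1485 (2.42%), for first-codon stops 0 of 164 and for productive sequences 8879 of 188274 (4.72%). Of all 2909 distinct stop-codon sequences, 57 were in 2 or more libraries and 0 under all 3 names. Across the repertoire sets 2 two-J sequences were shared, and 0 of the others.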

How the data were processed

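TRB transcripts of blood mononuclear cells were analysed in 8 post-infusion libraries, and the 4 baseline libraries were only searched for stop codons. The authors made cDNA from polyadenylated RNA, amplified the VDJ region, used Trimmomatic on the MiSeq reads and called clones by MiXCR at default settings against known rhesus TRB segments (versions and segment set not given in the sources used here). The deposited clone count is a whole number of sequences, not normalized. The deposited clone fraction equalled the count over the total of the table. The deposited quality score is the lowest base quality in the CDR3. The methods describe collapsing by molecular barcode, of which the tables hold no column, and the default assembly may merge near-identical clones, so neighbours were counted after any such merging.

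Total counts were 42695 to 556954 per library. A share of 3 counts, the floor, was 0.000539% to 0.00703%. V, D and J were the first hits. Stops were placed by the alignment points of the tables. The flank of TRBJ1-3 was taken from stop-codon clonotypes with that J. It was the commonest 38 bases before J alignments starting at base 60 or later (1512 of 1542), searched with up to 3 mismatches. V and J use (clonotypes per gene, at least 10 in at least 3 of 16 columns, TMM, library as block) was tested with edgeR 4.0.16 in R 4.3.3 (DESeq2 1.42.0 as alternative), adjusted by Benjamini-Hochberg over all genes. The other 4 measures used exact two-sided sign-flip permutation tests over libraries (smallest p 0.00781), adjusted over the 4. Both were tested on simulated data. Python 3.11.15, numpy 2.4.6, pandas 2.3.3, scipy 1.17.1 and matplotlib 3.10.9 were used.

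Named V genes were the 5 largest changes in each direction with an adjusted p below 0.05 and named J genes all below it. Named clonotypes were the stop-codon clonotype of the highest count in each library and the 5 of the highest summed count. Names pair the libraries of a name, and stop-codon and productive values are paired as they come from the same library. Members and lists were chosen with earlier results of these data known, and the two-J class was defined after the data were seen. No genome was used here. Alternatives were other scaling, filters, neighbour rules, libraries left out and unpaired tests.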

Additional observations from a re-analysis of the deposited data

Results flagged for a closer look

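Of 15 sets of 8 library values examined for a library far from the others, 2 had a gap that exceeded Dixon's 95% critical value, which chance gives in about 1 in 20 sets. Both were shares of clonotypes with 1 count, and both were highest in Nebula day -4, the library with the fewest counts: 49.2% of its two-J clonotypes and 42.4% of its productive clonotypes.

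The TRBJ1-3 flank was also present in clonotypes outside the comparisons, 456 out-of-frame clonotypes and 1 productive clonotype, and in 0 baseline clonotypes, none of which was longer than 57 bases. Of all 2000 clonotypes with the flank, 22.8% were out of frame (18.8% to 30.6% per library), against 5.43% of 29511 clonotypes whose named J was TRBJ1-1 or TRBJ1-2. In 351 of the 424 out-of-frame clonotypes whose first J was found, the V-D-J portion was itself out of frame. In 68 the gap from the CDR3 end to the flank was 40 bases in place of 27. TRBV23-1 was 62.1% of the 456 and 61.9% of two-J clonotypes. Of productive clonotypes with TRBJ1-1 or TRBJ1-2, 1426 used it and 26327 used other V genes. Over all J genes it made up 21.0% of out-of-frame and 7.75% of productive clonotypes. The contrast of 22.8% with 5.43% was not matched for V.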

How the results depend on the processing

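Of 109 alternative values of the 7 comparisons, 89 were counted as unchanged, with counts of genes within 1.5 times. The 89 include the means per name and per repertoire set of the 4 measures, which kept their direction only. Over 3 such values the exact sign-flip permutation p was 0.25, the smallest possible, so these cannot show whether the call held. V genes called were 15, against 23 with total clonotypes only, 5 with DESeq2, 8 with no replicate block, 7 with unambiguous first hits, 8 without two-J clonotypes, 23 without two-J clonotypes at 2 or more counts, and 1 with 1 library per repertoire set. J genes called were 6, against 13 with total clonotypes only, 2 with DESeq2, 10 at 2 or more counts, 3 with unambiguous first hits, 3 without two-J clonotypes and 1 with 1 library per repertoire set. Leaving out each library in turn gave 9 to 15 V genes (9 without Nebula day 0) and 3 to 7 J genes (3 without Nebula day -4), length differences of 43.1 to 44.5 bases, log2 count differences of -0.78 to -0.68, TRBD2 differences of -15.1 to -13.2 points and neighbour differences of 5.72 to 7.50 points. Leaving out each name gave day differences of -1.07 to -0.30 points.

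Stop-codon and productive values of a library are paired. With no replicate block, 8 against 8 values, the count difference of -0.72 had exact permutation p = 0.083 and the neighbour difference of 6.65 points p = 0.0699. The unpaired p was 0.000155 for length and TRBD2 use and 0.2 for the day difference of -0.593 points. With at least 2 counts the neighbour difference was 0.202 points, and with a 100-fold neighbour it was 0. Without two-J clonotypes the TRBD2 difference was -1.53 points, and TRBV2-2 and TRBJ1-3 reversed to -0.026 and -0.13 (TRBV2-2 at -0.38 with at least 2 counts). The cause of these changes was not tested. The two-J class was made from stop-codon clonotypes with TRBJ1-3, so the change of TRBJ1-3 on its removal was fixed in advance. Two-J removal, the 2-count rule for them and the repertoire sets were chosen after seeing the data. The named V and J genes kept their side of the threshold in 194 of 264 alternative values, fell short in 67 and reversed in 3. At the 42695 counts of Nebula day -4, a clonotype share under 0.00703% is not detectable.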
